A study of Schizosaccharomyces pombe with 21 samples.

Results

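Wild-type fission yeast was sequenced in each of the 2 experiments of the series, in ePMGT medium in one and in YES medium in the other. The 6 wild-type libraries, of 21 libraries in all, were set side by side here on the 6988 loci counted in both experiments. The ePMGT wild type was asp1-WT (h+ asp1-WT::hygMX), grown in 3 biological replicate cultures. Its replicate 1 was labelled with strain number BS216 and its replicates 2 and 3 with AS478, all under that 1 genotype, and the study's strain list was found to hold BS216 but not AS478. The YES wild type was kcs1-WT (h+ kcs1-WT::kanMX, labelled BS1037), also grown in 3 replicate cultures. ePMGT is a synthetic medium, an enhanced minimal glutamate medium with thiamine, and YES is a rich medium made from yeast extract with supplements. The lab's parental strains carry leu1-32, ura4-D18, his3-D1 and an ade6 allele, and poly(A)+ RNA came from log-phase cells at 30 °C in every group. The other 15 libraries were asp1 mutants STF6 and STF9 in ePMGT and kcs1 mutants R332T, L338R and E834K in YES. Medium, drug cassette, strain and experiment all changed together between the wild types, so none of them can be told apart from the others. For that reason only differences of 4-fold or more are described as changed.

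A synthetic medium supplies cells with few ready-made nutrients, whereas yeast extract carries amino acids, nucleobases, vitamins and metals. Fission yeast takes up iron by 2 routes: a reductase at the cell surface feeds a ferroxidase and permease pair, and separate transporters import iron bound to siderophores. When iron is plentiful the GATA-type factor Fep1 represses these genes, and when it is scarce Php4 represses genes whose products use iron. Uptake of hexoses, amino acids and nucleobases is likewise governed by which sources the medium offers.

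Total counts ranged over 26416642 to 35919903 in the asp1-WT libraries and 23442460 to 25808018 in the kcs1-WT libraries. Coding loci took 98.55% to 98.65% of the counts in asp1-WT and 99.17% to 99.19% in kcs1-WT. Genes for ribosomal proteins took 14.1% to 15.2% of the counts in asp1-WT and 23.7% to 24.4% in kcs1-WT. The TMM factors, which rescale a library for such shifts in composition, were 1.08 to 1.22 for asp1-WT and 0.848 to 0.89 for kcs1-WT. A normalized count below is a count divided by the library's effective size and brought to the scale of all 6 libraries. No 2 replicates agreed to within counting noise, so each library was counted as 1 sample. P-values measure the spread between these 3 and 3 cultures and say nothing of what set the groups apart.

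Of 6042 loci tested, 3879 (64.2%) passed an edgeR quasi-likelihood test at an adjusted p of 0.05, and the median log2 fold change, asp1-WT over kcs1-WT, was 0.066. A locus was called when it also differed by at least 4-fold and had a mean normalized count of at least 100 in the higher group. Among 4954 coding genes, 39 were called higher in ePMGT (0.787% of those tested) and 4 were called lower (0.0807%). Among 1088 noncoding loci, 11 were called higher (1.01%) and 16 lower (1.47%), which makes 50 of all tested loci higher (0.828%) and 20 lower (0.331%). Folds of the higher coding genes ran from 4.05 to 500.5 with a median of 7.475. Scaling by library totals alone, which moved the median of all loci to 0.48 on the log2 scale, gave 70 higher and 0 lower coding genes, and 19 higher and 14 lower noncoding loci. Values of the asp1-WT and kcs1-WT libraries did not overlap for 38 of the 39 higher coding genes, tlh2 being the exception, nor for any of the 4 lower ones. The calls were made from these same 6 libraries, so this count is a description and no separate support. The share of such loci among all tested loci was not counted.

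**Figure D1:**
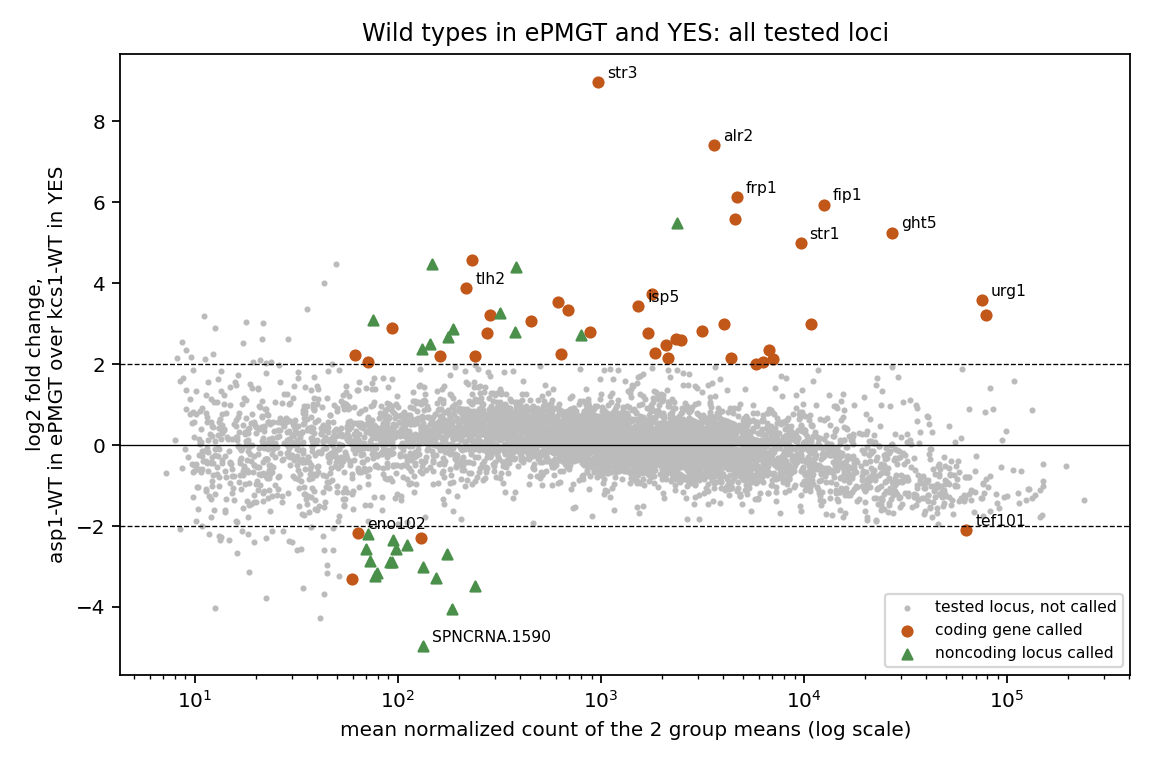
Each point is 1 of the 6042 tested loci. The horizontal axis gives the mean of the asp1-WT and kcs1-WT normalized counts on a log scale, and the vertical axis the log2 fold change, asp1-WT in ePMGT over kcs1-WT in YES, with dashed lines at 4-fold. The 39 higher coding genes (orange circles) reach 8.97 for str3, and most called noncoding loci (green triangles) on the lower side have small counts.

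Iron uptake was the list with the most genes called higher. Of 14 iron uptake genes listed, 13 could be tested, 7 were called higher and 0 lower, and their median log2 fold change was 2.16, against 0.066 over all tested loci. The 7 took 0.264% to 0.354% of all counts in asp1-WT and 0.009% to 0.01% in kcs1-WT.

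On the siderophore route, str3 stood at the top of the whole comparison. This transporter of ferric siderophores had 1555, 3653 and 1822 reads in the asp1-WT libraries, against 6, 1 and 2 reads in the kcs1-WT libraries. The gene was close to unread in YES and well expressed in each ePMGT culture. Scaled for library size, the 7030 reads against 9 give a ratio of 497.5, with an exact 95% interval of 261.9 to 1088.4 that covers counting error only. Its log2 fold change was 8.97 ± 0.57 (SE; edgeR adjusted p = 2.91e-08). For the second such transporter, str1, normalized counts were 15829, 22256 and 18085 in asp1-WT, against 629, 581 and 549.5 in kcs1-WT. It thus lay more than an order of magnitude apart in every pair of libraries, at a log2 fold change of 5.00 ± 0.13 (edgeR adjusted p = 5.60e-12). The third, str2, differed little, at 0.22 on the log2 scale.

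On the reductive route, frp1 encodes the cell-surface ferric reductase. Its normalized counts were 8349, 10059.7 and 9310.03 in asp1-WT, against 149.99, 125.5 and 119.6 in kcs1-WT, a log2 fold change of 6.13 ± 0.11 (edgeR adjusted p = 2.50e-13). Both groups were tight and far apart. The ferroxidase fio1 and the permease fip1 work as a complex at the plasma membrane and are encoded by adjacent genes. The permease gene fip1 had 24065, 27742 and 22333 normalized counts in asp1-WT, against 390.0, 357.0 and 459.0 in kcs1-WT. The ferroxidase gene fio1 had 8417, 10209 and 8256 in asp1-WT, against 177.5, 169.5 and 211.4 in kcs1-WT. Asp1-WT replicate 2 was the highest library for fip1, fio1, frp1 and str1 alike. Their log2 fold changes were 5.94 ± 0.12 for fip1 and 5.59 ± 0.11 for fio1 (edgeR adjusted p = 3.74e-13 for each). The second reductase gene, frp2, averaged 807 ± 143 normalized counts in asp1-WT and 95.3 ± 9.21 in kcs1-WT (SD, n = 3 each), a log2 fold change of 3.08.

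Iron handling inside the cell was represented by 3 further called genes. The gene abc3, for a vacuolar ABC transporter, averaged 7182 ± 549.8 normalized counts in asp1-WT and 1604 ± 125 in kcs1-WT (SD, n = 3 each; log2 fold change 2.16 ± 0.08). The gene mmt1, annotated as a mitochondrial iron transporter, had 2986, 3238 and 2667 normalized counts in asp1-WT, against 456.2, 428.2 and 428.8 in kcs1-WT (2.76 ± 0.09). The gene isu1, for an iron-sulfur cluster scaffold, lay just past the 4-fold line at 2.02 ± 0.09 and short of it by DESeq2, at 1.97. Members that were not called included both regulators. The gene php4 averaged 3929 normalized counts in asp1-WT and 1146 in kcs1-WT, at 1.78 on the log2 scale (2.19, past the line, when scaled by library totals), and fep1 averaged 4406 in asp1-WT and 2490.1 in kcs1-WT, at 0.82. Siderophore synthesis moved little, with sib1 at -0.38 (0.027 when scaled by library totals) and sib2 at 0.89. The vacuolar iron importer gene pcl1, which serves storage, was the lowest of the list at -0.98. None of 14 genes for iron-using proteins was called, and their median was -0.32 (0.083 when scaled by library totals).

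**Figure D2:**
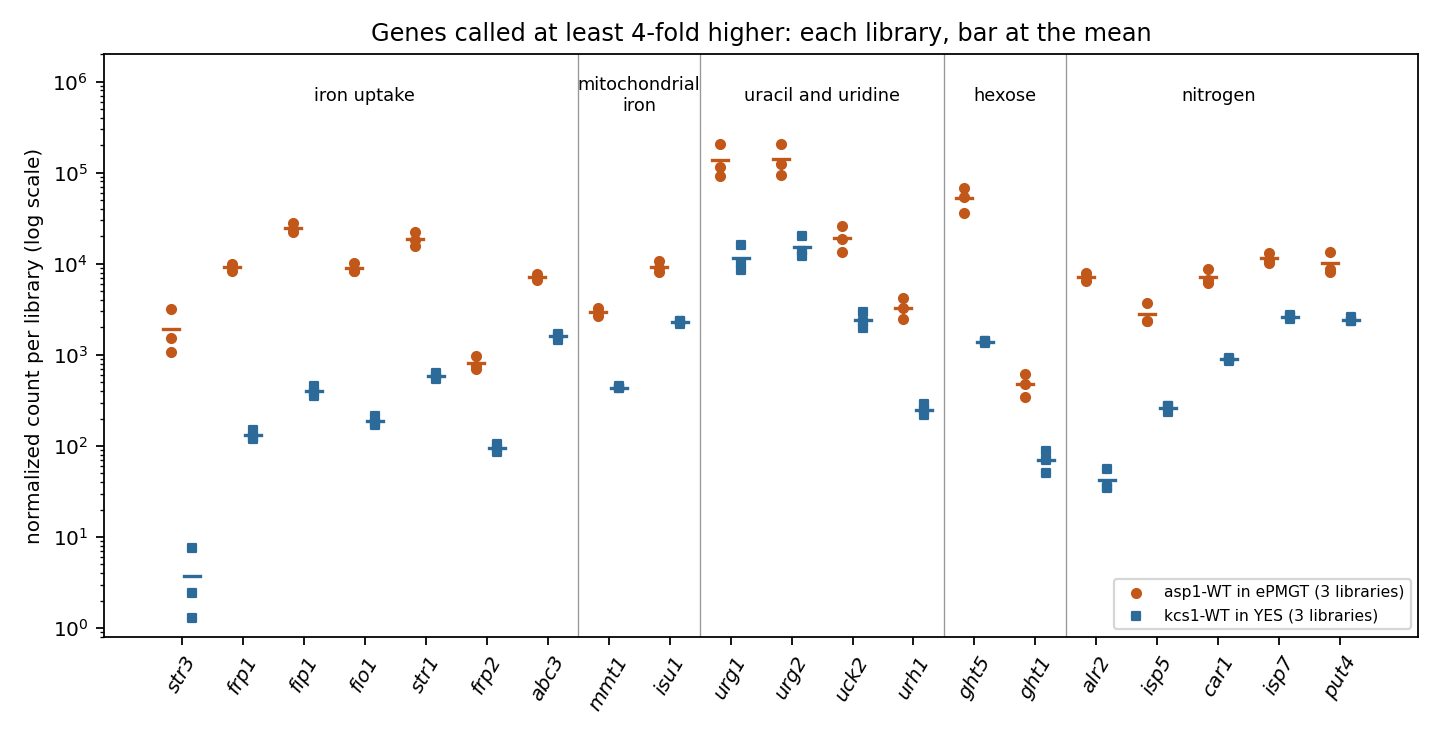
Normalized counts on a log scale are shown for 20 genes called higher, with 1 point per library, orange circles for the 3 asp1-WT libraries in ePMGT and blue squares for the 3 kcs1-WT libraries in YES, and a bar at each mean. The groups do not overlap for any of these genes, and the gap is widest for str3, whose means are 1939.9 in asp1-WT and 3.74 in kcs1-WT.

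A second group of changes concerned uracil and uridine. The genes urg1 and urg2, which have urg3 between them, are known as uracil-regulated genes. The promoter of urg1 is used as a uracil-inducible promoter in this yeast. Normalized counts of urg1 were 208646, 92802 and 116677 in asp1-WT, against 10218, 16067 and 8514 in kcs1-WT. Those of urg2 were 206412, 94516.5 and 124071 in asp1-WT, against 13700, 20244 and 12179 in kcs1-WT. In both genes asp1-WT replicate 1, the library labelled BS216, was the highest of its group, and kcs1-WT replicate 2 was the highest of the other. Log2 fold changes were 3.59 ± 0.29 for urg1 and 3.20 ± 0.26 for urg2 (edgeR adjusted p = 2.24e-07 and 2.22e-07). The third member, urg3, fell just short of the line at 1.93 and passed it, at 2.33, when scaled by library totals. The nearby gene uck2, annotated as a uracil phosphoribosyltransferase, was called at 3.00 ± 0.20. The gene urh1, for a uridine ribohydrolase, was called at 3.73 ± 0.17, with 4163, 2477 and 3288 normalized counts in asp1-WT, against 246.2, 285.9 and 218.6 in kcs1-WT. The uracil permease gene fur4 was at 0.35. The 4 genes urg1, urg2, urg3 and uck2 together took 1.0% to 2.01% of all counts in asp1-WT and 0.104% to 0.173% in kcs1-WT. Of 5 listed uracil-regulated genes tested, 2 were called higher, and the median was 1.93. None of 18 genes of purine and pyrimidine biosynthesis was called, yet all 18 had negative log2 fold changes, with a median of -0.73 (gua1 was lowest at -1.40). When scaled by library totals, 5 of the 18 turned positive.

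Hexose transport was led by ght5, which encodes the main high-affinity glucose transporter. Its normalized counts were 68228, 35943 and 54672 in asp1-WT, against 1334, 1435 and 1412 in kcs1-WT. All asp1-WT values were far above the kcs1-WT values, but they spread more widely than those of kcs1-WT. The log2 fold change was 5.25 ± 0.20 (edgeR adjusted p = 4.73e-10). Only 70.7% of the 51-base windows of ght5 occur once in the genome, so reads shared with its paralogs make its level uncertain. The related symporter gene ght1 averaged 479 ± 136 normalized counts in asp1-WT and 69.8 ± 19.0 in kcs1-WT (SD, n = 3 each; log2 fold change 2.78 ± 0.24). The genes ght3 and ght4 stood just under 4-fold at 1.93 and 1.86 (2.34 and 2.26 when scaled by library totals), and ght2 and ght8 stood at 0.78 and 0.32. Together ght1 to ght8 took 0.373% to 0.517% of all counts in asp1-WT and 0.131% to 0.137% in kcs1-WT. Of 21 hexose and alternative carbon genes, 2 were called higher and 0 lower, with a median of 0.61. In that list 15 genes were above 0 and 6 below. The gluconeogenic gene fbp1, a classical marker of glucose limitation, was at 0.15 (mean normalized counts 149 in asp1-WT and 135 in kcs1-WT). The invertase gene inv1 stood at 1.81, short of the line (519.8 in asp1-WT and 148.6 in kcs1-WT). Glucose limitation itself was not tested.

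The second largest fold after str3 was that of alr2, which encodes an alanine racemase. Its normalized counts were 7178, 6497 and 7962 in asp1-WT, against 56.2, 34.9 and 35.0 in kcs1-WT. The gene was uniformly high in the ePMGT wild type and uniformly low in YES, at 7.42 ± 0.14 on the log2 scale (edgeR adjusted p = 3.03e-13). Other called genes deal with nitrogen sources. The amino acid transporter gene isp5 had 3676, 2369 and 2368 normalized counts in asp1-WT, against 275.0, 271.6 and 235.5 in kcs1-WT (3.43 ± 0.17). The proline transporter gene put4 (4.18-fold) and isp7, for a 2-oxoglutarate-dependent oxygenase (4.36-fold), were near the line, and both fell below it without asp1-WT replicate 1, at log2 fold changes of 1.77 for put4 and 1.98 for isp7. The arginase gene car1 averaged 7146 normalized counts in asp1-WT and 899 in kcs1-WT (2.99 ± 0.11). SPAPB24D3.03, annotated as an agmatinase, which acts on decarboxylated arginine, was at 2.60 ± 0.09. The oligopeptide transporter gene opt3 was called at 3.21. Of 21 genes for nitrogen source and amino acid uptake, 3 were called higher and 0 lower, with a median of 0.53. Among those not called, the permease genes aat1 and per1 and the ammonium transporter gene amt1 stood at 1.67, 1.54 and 1.46, and aat1 passed the line at 2.08 when scaled by library totals.

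Amino acid biosynthesis gave no call in either direction, although ser3 passed the line when scaled by library totals. In all, 26 of the 33 lists had no called member by edgeR, nor by DESeq2, although 364 of their 421 tested members had an unadjusted edgeR p under 0.05 and 136 differed at least 2-fold at the adjusted p. The medians were -0.13 for 8 arginine genes, -0.35 for 7 lysine genes, -1.05 for 7 branched-chain genes, -0.22 for 7 histidine genes and -0.65 for 8 aromatic genes. They were -0.050 for 16 genes of sulfur assimilation and methionine, and -0.25 for 20 genes of glutamate, proline, serine and threonine metabolism. When scaled by library totals, only the branched-chain and aromatic medians stayed negative. Within these lists the outermost values were mixed in direction. The highest members of their lists included ser3, for the first enzyme of serine synthesis, at 1.68 (2.08 when scaled by library totals). Others were his3, a marker locus of the parental strains, at 1.48, the S-adenosylmethionine synthetase gene sam1 at 1.41 and arg7 at 1.12. The lowest members of their lists included gdh2 at -1.51, the lysine gene lys2 at -1.24 and trp1 at -1.18. Another was ilv5, shared by isoleucine and valine synthesis, at -1.12. Vitamin genes were not called either. The 8 thiamine genes had a median of -0.57, with thi4 lowest at -0.77, and 10 genes of other vitamins had a median of 0.30, with the transporter gene tna1 highest at 0.97. SPCC794.03 was called at 3.34 ± 0.12, with 1327, 1307 and 1131 normalized counts in asp1-WT, against 121.2, 119.0 and 130.4 in kcs1-WT. The annotation used here names it a thiamine transporter, whereas the study itself names it an amino acid transmembrane transporter. Its substrate was not tested, so its call is not counted as a change in thiamine uptake.

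**Figure D3:**
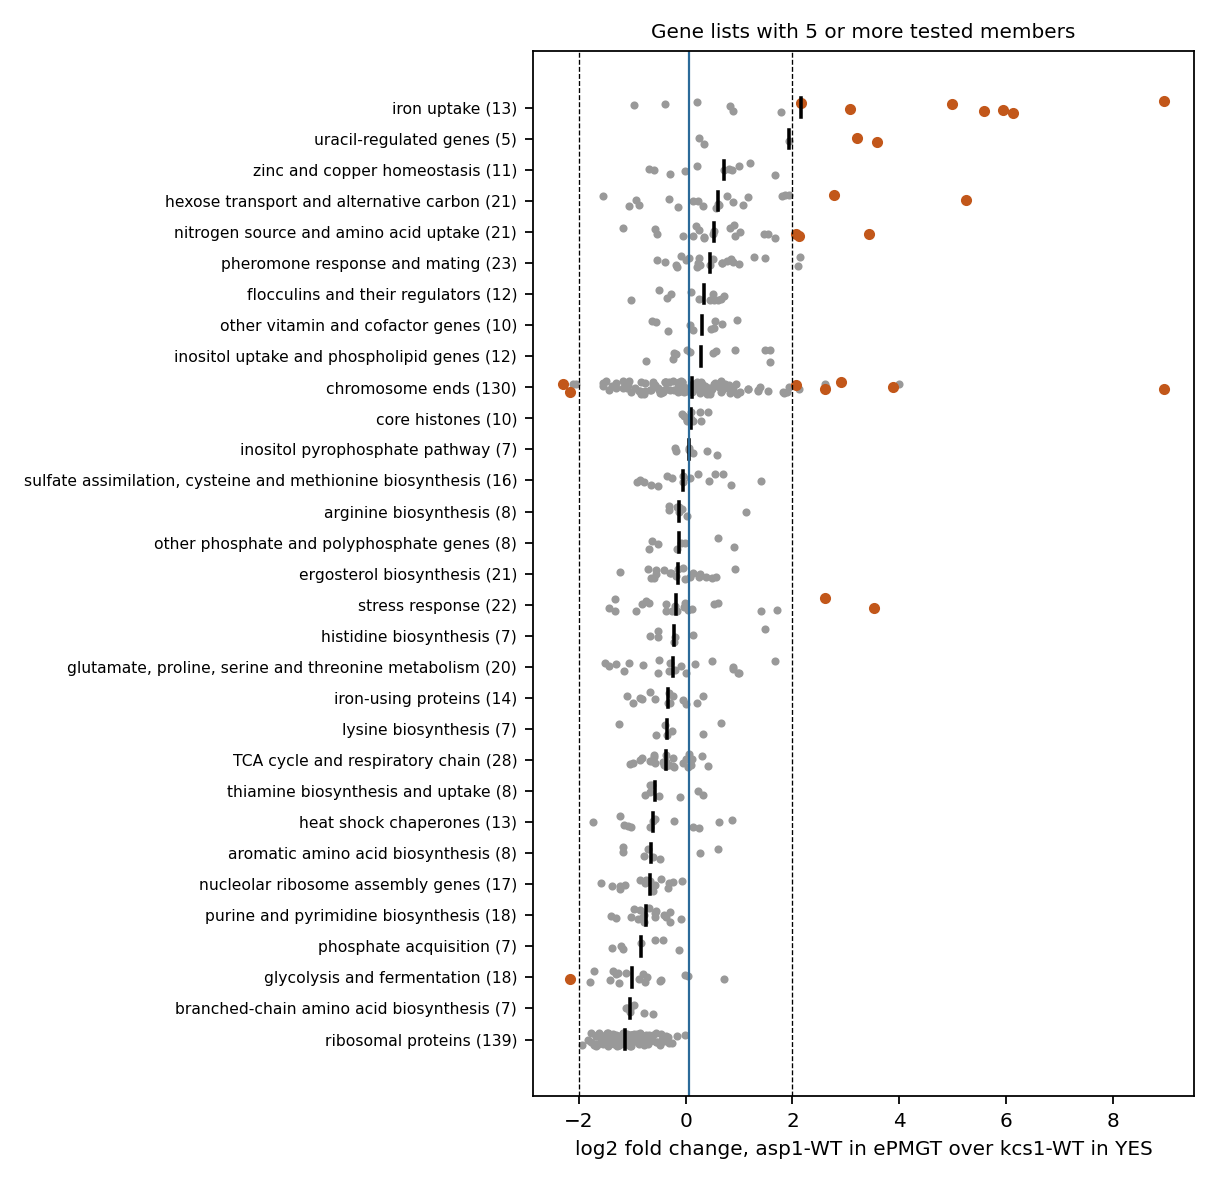
Each row is a gene list with the number of members tested. Grey points are members not called, orange points are called members, the black bar is the list median, the blue line is the median of all tested loci at 0.066, and dashed lines mark 4-fold. The horizontal axis is the log2 fold change, asp1-WT in ePMGT over kcs1-WT in YES. Iron uptake has the highest median, 2.16, and ribosomal proteins the lowest, -1.14.

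Among other called genes, srx1, for the sulfiredoxin that regenerates oxidized peroxiredoxin, had 1113, 1183 and 1122 normalized counts in asp1-WT, against 96.2, 90.5 and 108.7 in kcs1-WT (3.53 ± 0.12). The chronological lifespan gene ecl1 was called at 2.61 ± 0.14. These were the 2 called of 22 stress response genes, whose median was -0.18 (0.23 when scaled by library totals). The small heat shock gene hsp16 was the lowest of 13 chaperone genes. It had 230.1, 696.9 and 320.3 normalized counts in asp1-WT, against 1447, 1096 and 1609.97 in kcs1-WT. Its log2 fold change of -1.74 was short of a call and passed it, at -2.36, without asp1-WT replicate 2. In zinc and copper homeostasis, 0 of 11 genes were called, and the zinc transporter gene zrt1 was highest at 1.67. It passed the 4-fold line when scaled by library totals, at 2.07, and in the mean of the 3 ePMGT groups minus the mean of the 4 YES groups, at 2.64. SPCC1235.18, an uncharacterized gene beside ght5, was called at 4.56 ± 0.34. The remaining higher coding genes were nep2 at 2.79, rec24 at 2.05, mug14 at 2.22, cmt2 at 2.90 and 8 genes known only by locus names, at 2.15 to 2.81. Of these 8, SPAC11D3.17, annotated as a zinc-cluster transcription factor, was at 2.48, and SPAC11D3.03c, SPAC11D3.19 and SPAC11D3.06, which share its locus prefix, were at 2.21, 2.20 and 2.15. SPBC1271.08c was at 2.81, SPAC3H1.06c, annotated as a transporter, at 2.34, SPAPB1A10.08 at 2.28 and the transporter gene SPCC794.04c at 2.26. The call of mug14 is uncertain, with a mean of 101 normalized counts in asp1-WT. It was lost by DESeq2, in the fit of all 21 libraries and without kcs1-WT replicate 3, at 1.82. Of the 39 higher genes, 14 (35.9%) have a product name that contains transport, permease, symporter or antiporter, as do 218 of the 4954 tested coding genes (4.4%). This count of product names was made after the calls were seen.

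The gene tlh2, for a helicase repeated at chromosome ends, rested on 1 library. It had 50, 1300 and 57 reads in asp1-WT, against 30, 9 and 27 in kcs1-WT. The log2 fold change of 3.88 ± 1.13 (edgeR adjusted p = 0.00879) became 0.56 without asp1-WT replicate 2, and only 6.77% of its 51-base windows are unique. Near the ends of the chromosomes, less than 100 kb from the last base, 130 coding genes were tested and 5 were called higher, tlh2 among them, and 2 lower, with a median of 0.13. The 3 Tf2 retrotransposon loci that could be tested had a median of 1.46. The highest, Tf2-10, was 4.17-fold higher with fewer than 100 counts and was not called. Only 2.98% of its 51-base windows are unique, so the copy its reads came from is uncertain.

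Few coding genes were lower in the ePMGT wild type. SPBC1289.14, annotated as an adducin, had 16, 7 and 18 reads in asp1-WT, against 95, 73 and 92 in kcs1-WT, a log2 fold change of -3.30 ± 0.29 (edgeR adjusted p = 4.55e-07). The transcription factor gene grt1 had 60, 32 and 74 reads in asp1-WT, against 160, 188 and 173 in kcs1-WT (-2.30 ± 0.25). The enolase paralog eno102 had 33, 30 and 24 reads in asp1-WT, against 87, 72 and 93 in kcs1-WT (-2.18 ± 0.22). These 3 genes had few reads in both wild types, and their groups did not overlap. The fourth, tef101, encodes translation elongation factor 1-alpha, which delivers aminoacyl-tRNAs to the ribosome. It averaged 23815 ± 4215 normalized counts in asp1-WT and 102418 ± 6230 in kcs1-WT (SD, n = 3 each; -2.10 ± 0.12). Only 34.9% of its windows are unique, so its split from its near-identical paralogs is uncertain, and without asp1-WT replicate 3 its log2 fold change was -1.99.

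None of the 139 ribosomal protein genes and none of the 17 ribosome assembly genes was called. All 139 ribosomal protein genes nevertheless had negative log2 fold changes, from -1.94 (rpl1901) to -0.015, with a median of -1.14. When scaled by library totals the median was -0.73 and 132 of the 139 were negative. In 126 of the 139, all 9 ePMGT libraries of the series lay below all 12 YES libraries, against 887 of the 6042 tested loci (14.7%). The extreme member rpl1901 had 18974, 19483 and 17993 normalized counts in asp1-WT, against 74127, 69176 and 73206 in kcs1-WT. All 17 nucleolar ribosome assembly genes were also negative, with a median of -0.66 and fib1, for fibrillarin, lowest at -1.58. When scaled by library totals 4 of the 17 turned positive. Of 18 genes of glycolysis and fermentation, 1 was called, eno102, and the median was -1.001. The medians were -0.37 for 28 genes of the TCA cycle and respiratory chain (0.040 when scaled by library totals, atp1 lowest at -1.03) and -0.14 for 21 ergosterol genes (erg10 lowest at -1.23). For the 10 core histone genes the median was 0.10, with hhf2 highest at 0.43. For 12 genes of inositol uptake and phospholipids it was 0.29, with plb1 highest at 1.58, and for 12 flocculin genes and regulators it was 0.35, with pfl6 lowest at -1.03.

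The genes that the mutant comparisons of the series are about were not called between the wild types. The inositol pyrophosphate enzyme genes asp1 and kcs1 were at -0.17 (edgeR adjusted p = 0.0528) and -0.19 (edgeR adjusted p = 0.0111), and both turned positive when scaled by library totals, at 0.24 and 0.22. The largest value of that pathway was 0.59 for ipk1. Of the 7 phosphate acquisition genes, all had negative log2 fold changes, with a median of -0.84. The phosphate transporter gene pho84 was lowest at -1.38, followed by the glycerophosphodiester transporter gene tgp1 at -1.21 and the acid phosphatase gene pho1 at -1.17. Normalized counts of pho1 were 34433, 29055 and 24354 in asp1-WT, against 65795, 65070.4 and 67050.0 in kcs1-WT. SPBPB2B2.06c was at -0.84, pho841 at -0.57, ecl3 at -0.43 and pho842 at -0.12 (0.29 for pho842 when scaled by library totals). The median of 8 other phosphate and polyphosphate genes was -0.13, with the regulator gene pho7 highest at 0.91.

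The strain background was checked on the loci of the parental markers. No read was counted at ura4 in any of the 6 libraries. At his3, 868 to 1202 reads were counted in asp1-WT and 209 to 249 in kcs1-WT, a log2 fold change of 1.48. Reads were thus counted at his3 in both wild types although the parental strains carry his3-D1, unlike at ura4. Where in his3 these reads fall was not tested. At leu1 and ade6 the log2 fold changes were -1.09 and -0.78. Reads at genes of both mating types were also counted, since both strains are labelled h+. The M-factor receptor gene map3, an h+ marker, had 1231 to 1409 reads in asp1-WT and 369 to 442 in kcs1-WT. The pheromone protease gene sxa1, also of h+ cells, had 15923 to 22570 reads in asp1-WT and 16244 to 17131 in kcs1-WT. Of the h- markers, mfm1 had 13 to 22 reads in asp1-WT and 1 to 4 in kcs1-WT, mfm2 had 109 to 161 in asp1-WT and 49 to 83 in kcs1-WT. Likewise mfm3 had 25 to 45 in asp1-WT and 20 to 26 in kcs1-WT, and mam2 had 162 to 215 in asp1-WT and 92 to 116 in kcs1-WT. The M-factor exporter gene mam1, also an h- marker, had 2095 to 2911 reads in asp1-WT and 1218 to 1333 in kcs1-WT. The gene ste6, of the pheromone response and mating list, had 433 to 659 in asp1-WT and 373 to 393 in kcs1-WT. The h+ marker map1 had 103 to 122 reads in asp1-WT and 34 to 49 in kcs1-WT. The h+ marker map2 had 169 to 249 in asp1-WT and 118 to 183 in kcs1-WT. In both wild types the h- marker mam1 had more reads than map1, map2 and map3, and fewer than sxa1. Reads at these markers thus do not settle whether the h+ label holds. The M genes at mat1 and mat3 had 0 reads in all 6 libraries, but none of their windows is unique, so they do not separate the types. None of 23 genes for pheromone response and mating was called, and their median was 0.46.

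Several called genes lay side by side. Of the 43 called coding genes, 11 (25.6%) had another gene called in the same direction within 2 places on the chromosome, while 136 of 4951 tested coding genes (2.75%) had a called gene that near. The 11 formed 5 groups, which are urg2, urg1 and uck2 (chromosome I), fip1 and fio1 (chromosome I), abc3 and mug14 (chromosome II), SPCC1235.18 and ght5 (chromosome III), and SPCC794.03 and SPCC794.04c (chromosome III). In the first group urg3, at 1.93, and toe1, at 1.05, lay between the called genes. The group of abc3 and mug14 rests on the uncertain call of mug14. The tested genes near fip1 and fio1 differed little, with cdc22 at -0.24 and dal2 at 0.021. The gene next to fip1, hsp3105, could not be tested. Beside ght5, the gene dga1 was at -0.23.

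**Figure D4:**
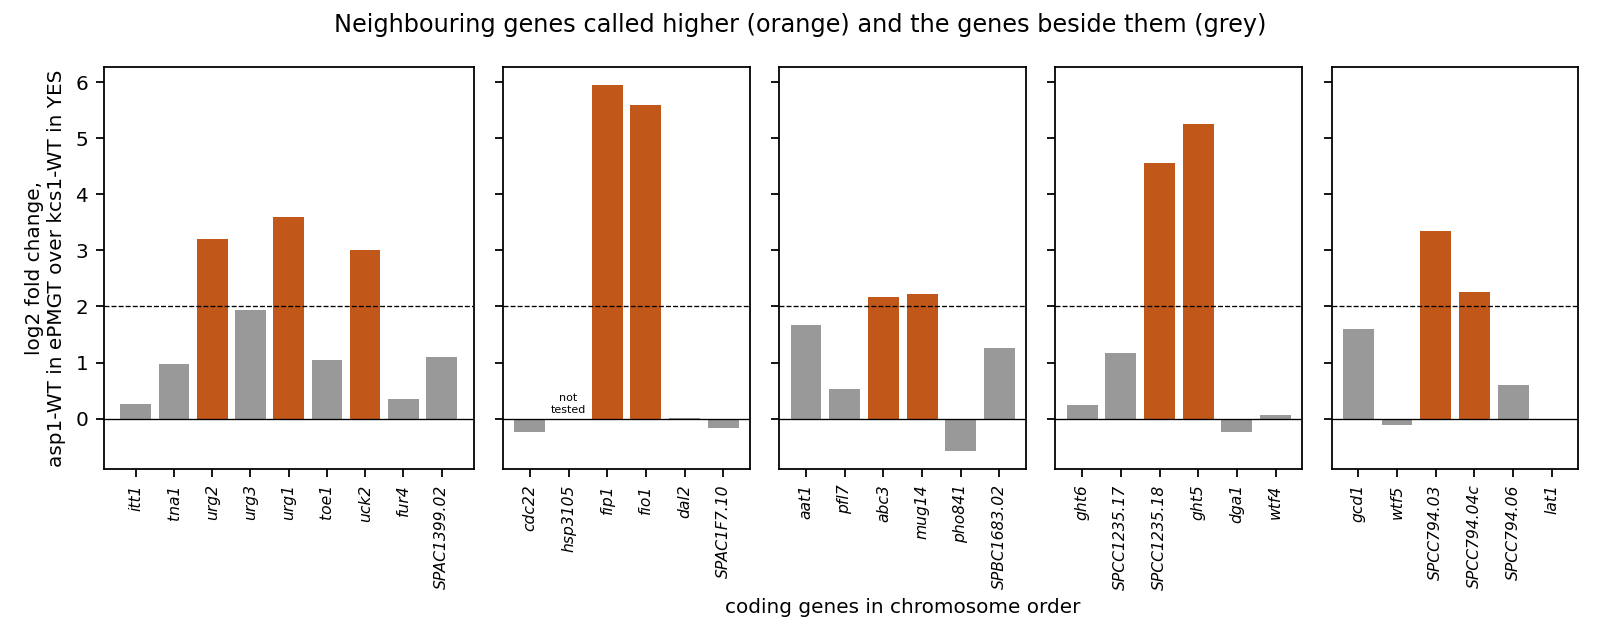
Bars give the log2 fold change, asp1-WT in ePMGT over kcs1-WT in YES, of coding genes in chromosome order around the 5 groups of neighbouring called genes. Orange bars are called and grey bars are not, and the dashed line marks 4-fold. The tested genes near fip1 and fio1 lie near 0, while those around urg1 range from 0.25 to 1.93. The gene next to fip1, hsp3105, was not tested.

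Noncoding loci accounted for most of the lower calls. SPNCRNA.935 had 7361, 5398 and 4849 reads in asp1-WT, against 86, 76 and 87 in kcs1-WT. It overlaps no coding gene, and its log2 fold change of 5.48 ± 0.11 was the highest of the noncoding loci (edgeR adjusted p = 3.74e-13). SPNCRNA.1144 had 442, 313 and 312 reads in asp1-WT, against 8, 6 and 16 in kcs1-WT (4.48 ± 0.26). It lies on the opposite strand at asp1, the gene that carries the hygMX cassette in the ePMGT strain, and the part of the cassette in its counts was not tested. SPNCRNA.577 and SPNCRNA.1115 were at 4.41 ± 0.21 and 3.26 ± 0.20. On the lower side, SPNCRNA.1590 had 5, 17 and 8 reads in asp1-WT, against 254, 170 and 193 in kcs1-WT (-4.98 ± 0.34, with 82.0% unique windows). It was followed by SPNCRNA.1594 at -4.04 ± 0.36, SPNCRNA.1465 at -3.48 ± 0.34 and SPNCRNA.639 at -3.28 ± 0.36. On either strand, 13 of the 16 lower loci and 7 of the 11 higher ones overlap a coding gene. Among all tested noncoding loci with a position, 791 of 1082 (73.1%) do so. On the opposite strand alone, 13 lower and 6 higher loci overlap a coding gene. The partners were gar1 for SPNCRNA.1590, the ribosomal protein genes rpl1801 and rps1601 for SPNCRNA.1594 and SPNCRNA.1465, and mcp60 for SPNCRNA.639. None of these 4 partners was called, at -1.38 for gar1, -0.66 for rpl1801, -0.85 for rps1601 and -0.57 for mcp60. Opposite abc3, which was higher, SPNCRNA.1312 was lower at -2.89. The strand setting of the counting is not given in the sources used here, so reads of such a pair cannot be told apart. The BS216 library was the lowest of the 3 asp1-WT libraries at 13 of the 16 lower loci.

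The spread within asp1-WT bears on several of these values. The BS216 library was the highest of the 3 at 24 of the 39 higher coding genes and the lowest at 7. At 10 of them it was at least 1.5-fold above the mean of the 2 AS478 libraries. The ratio was 1.99 for urg1, 1.89 for urg2, 1.86 for SPCC794.04c, 1.57 for put4 and 1.51 for ght5, against 0.96 for fip1, 0.86 for frp1 and 0.45 for str3. With 1 library against 2, the strain labels could not be tested.

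The mutant libraries show how far the same order held in other genotypes grown alongside. All 9 ePMGT libraries were above all 12 YES libraries at 32 of the 39 higher coding genes, against 805 of the 6042 tested loci (13.3%). All 9 were below all 12 at 3 of the 4 lower genes, SPBC1289.14 being the exception, against 887 of 6042 (14.7%). Among noncoding loci the order held at 7 of 11 higher and 8 of 16 lower. These libraries share medium and experiment with their wild type, so this is a count and no test of the medium.

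The iron genes differed in how the ePMGT mutants stood to the ePMGT wild type. On the scale of all 21 libraries, the STF6, STF9 and asp1-WT means of str3 were 2008, 2301 and 1740.3 normalized counts, against 9.71, 8.67, 6.98 and 3.42 in R332T, L338R, E834K and kcs1-WT. The STF6, STF9 and asp1-WT means of fip1 were 20664, 24409 and 22211, against 932, 756, 821 and 368 in the same 4 YES groups. Every YES mutant was thus above its own wild type in these means, by less than the distance to ePMGT. The genes mmt1, isu1 and isp5 differed by less than 1.5-fold among the 3 ePMGT group means. For the other called iron genes asp1-WT was above both mutants. The STF6, STF9 and asp1-WT means were 3198, 3961 and 8295 for frp1, 196, 263 and 726 for frp2, and 2172, 2649 and 6455 for abc3. They were 5435, 5872 and 8051 for fio1 and 9953, 11816 and 16808 for str1. In the mean of the 3 ePMGT groups minus the mean of the 4 YES groups, frp2 and abc3 were short of the 4-fold line, at 1.90 and 1.20.

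At several called genes outside the iron list asp1-WT likewise stood above both ePMGT mutants. The STF6 and STF9 means of alr2 were 597 and 962, against an asp1-WT mean of 6475. The STF6, STF9 and asp1-WT means of ght5 were 8004, 10178 and 47641, against 4196, 6445, 6845 and 1275 in R332T, L338R, E834K and kcs1-WT. Its ePMGT and YES libraries overlapped when mutants were included, as did those of ght1, ecl1, cmt2, tlh2, mug14 and SPAC11D3.03c. The STF6, STF9 and asp1-WT means of cmt2 were 41.7, 43.7 and 149, against 152 in R332T and 20.04 in kcs1-WT. When the mean of the 3 ePMGT groups was set against the mean of the 4 YES groups, 38 coding genes were called higher, of which 20 were among the 39.

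**Figure D5:**
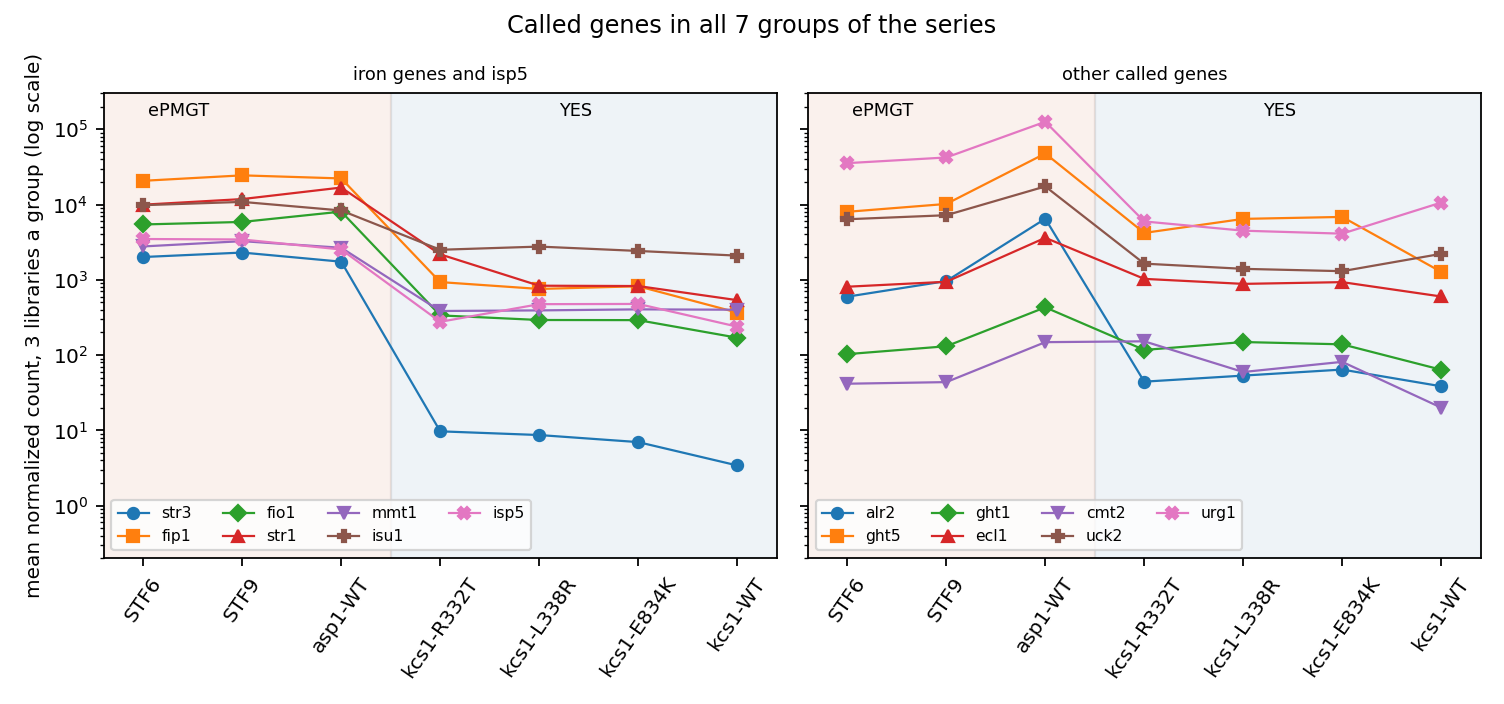
Mean normalized counts of 3 libraries per group, on the scale of all 21 libraries and a log axis, for 7 called genes in each panel, with ePMGT groups on the orange and YES groups on the blue background. Lines join the points of 1 gene. In the left panel every ePMGT group mean is above every YES group mean, while in the right panel asp1-WT stands above STF6 and STF9, for example at 6475 for alr2 against 597 and 962.

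The 4-fold line does not mark a gap in the data. Just inside it on the higher side were isu1 at 4.05-fold, rec24 at 4.14-fold and put4 at 4.18-fold, and just outside were the amino acid permease gene SPBC359.01 at 3.84-fold, urg3 at 3.82-fold, ght3 at 3.81-fold and pof15 at 3.78-fold. On the lower side tef101, at a log2 fold change of -2.10, was inside, and rpl1901 at -1.94 and ubi2 at -1.89 were outside. With a 2-fold line in its place, 537 loci would pass.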

How the data were processed

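Poly(A)+ RNA was sequenced as 51-base paired reads. Per the labels and the study's methods, the authors mapped reads with HISAT2 2.1.0 to ASM294v2 and HTSeq 0.10.0 counted the reads on exons, and the deposited tables hold raw counts, whole numbers per locus, 1 table per experiment. The authors' comparison tables (fold changes and p-values) were not used. The labels name an Illumina TruSeq stranded kit and the study's methods another directional kit. Genotypes and strain numbers come from the labels and methods.

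The 2 tables were joined on locus ID (6988 loci in both, 0 in only 1). The gene table of ASM294v3 gave names, exon windows and gene order for 6848 loci. Its build differs from the authors', so no position or sequence is printed. Loci were kept by filterByExpr, scaled by TMM and tested with the edgeR 4.0.16 quasi-likelihood test in R 4.3.3 (prior count 0.125) with Benjamini-Hochberg adjustment over all 6042 loci. A call required an adjusted p no larger than 0.05, a difference of 4-fold or more, and 100 or more normalized counts on average in the higher group. The standard error is the absolute log2 fold change over the square root of F. Depth was 23442460 to 35919903 counts per library, and the counting interval covers counting error only. Replicate numbers did not pair the samples.

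The members, lists (404 of 418 written names matched) and tests were chosen with earlier results of these data known. Named genes were the 12 largest called coding changes in each direction, up to 4 called genes per list (or the most changed member), 4 noncoding loci in each direction, the marker and phosphate genes and the mating type markers. All others were named after their values were seen. Alternatives were other scalings, no filter, DESeq2 1.42.0, a test against 4-fold, fits on 21 libraries, a replicate block and each library left out. Limits to unique or non-overlapping loci were added after seeing the data.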

Additional observations from a re-analysis of the deposited data

How the results depend on the processing

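The main counts were 39 higher and 4 lower coding genes, and 11 higher and 16 lower noncoding loci. Scaling by library totals gave 70, 0 and 19 for the first 3. A test against a fold of 4 itself (edgeR glmTreat) gave 25 higher and 1 lower coding genes and 8 lower noncoding loci. All 21 libraries in the fit gave 2 lower coding genes. The mean of 3 ePMGT groups minus the mean of 4 YES groups gave 8 lower coding genes, of which 2 were shared, and 9 lower noncoding loci, of which 6 were shared. Without a minimum on the mean count there were 10 lower coding genes, 20 higher and 42 lower noncoding loci. Noncoding loci overlapping no coding gene gave 4 higher and 3 lower. Leaving out 1 library at a time gave 33 to 41 and 3 to 6 coding genes, and 11 to 13 and 16 to 18 noncoding loci. With replicate number as a block the counts were 39, 4, 11 and 16; same-numbered libraries of the wild types correlated at 0.18, -0.0599 and 0.203, so the numbers were not taken to pair them. DESeq2 called 36 and 4 coding genes, with tlh2 given no adjusted p.

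Directions reversed with the mean of groups for pho84 (2.11), tgp1 (3.84), pho1 (3.600), pho841 (0.69), pho842 (1.44), ecl3 (3.96), SPBPB2B2.06c (4.11), asp1 (0.23) and ght8 (-0.088), a contrast with the mutants of both experiments. They reversed with library totals for asp1 (0.24), kcs1 (0.22), pho842 (0.29) and sib1 (0.027), where the median of all loci moved to 0.48. Precision at weak loci such as SPBC1289.14 is limited by counts below 20 in asp1-WT.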
